A study of Mus musculus with 2 samples.

Results

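Open chromatin regions that lie deep inside introns were described in adrenal glands, taken at 4 days of age from female B6CASTF1/J mice. Both libraries are DNase-seq, in which the enzyme DNase I cuts DNA where chromatin is accessible. The labels name them as biological replicates 1 and 2, mention 3 females per sample and give both the same donor identifier, so it is not known here how independent the replicates are. B6CASTF1/J mice are first-generation hybrids of C57BL/6J and CAST/EiJ, and positions refer to the C57BL/6J reference (mm10). There is 1 group and no treatment, so no test between groups was made, and values are given per library.

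A member is a replicate 2 peak on chromosomes 1 to 19 that a replicate 1 peak overlaps, with its centre over 10 kb from the nearest transcription start site (TSS) of GENCODE release M21, inside a gene and in no exon. The members were thus chosen by the peak calls of both libraries and by annotation, and their number and overlap are a description. There were 3243 members among 38180 shared peaks, or 8.494%. Sequence that meets the same positional rule covers 563.4 Mb, or 22.88% of these chromosomes. Members thus lay at 5.756 per Mb, against 15.5 shared peaks per Mb over the chromosomes as a whole. Of the shared peaks, 56.24% lay within 1 kb of a TSS, where the rule admits no member, so these rates are not like for like. The members nearest to the 10 kb limit on its inner side lay in Sept9, 10002 bp from a TSS with signals of 0.904 and 1.487 in replicates 1 and 2, and in Gm49711 at 10007 bp with 0.8358 and 2.568. Just outside it lay a peak in Gm14164 at 9996 bp with 1.1 and 2.146, and one in the overlapping genes 1500015L24Rik and C730002L08Rik at 9979 bp with 0.742 and 2.137.

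Introns hold many of the enhancers of mammalian genomes, short stretches where transcription factors displace nucleosomes and act on the host gene or on genes further away. They also hold binding sites of CTCF, a zinc finger protein that anchors chromatin loops and bounds regulatory domains, and whose sites are often occupied in many tissues alike. The adrenal gland has a steroid-producing cortex, where the nuclear receptor NR5A1 (SF-1) is a central regulator, around a medulla of chromaffin cells that make catecholamines. In a whole gland, fewer cells of a type and weaker opening per cell cannot be told apart.

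The sequences below show what the results turn on. The first 5 are among the best ranked members with the CTCF string CCNNNAGNNGGC under a footprint, a short protected stretch, in both libraries, among members with under 20% repeat-masked bases. Each is shown 5′ to 3′ on the strand on which the string reads, with the 12 matched bases in capitals (mm10).
St3gal3, chr4:118083780-118083823, minus strand: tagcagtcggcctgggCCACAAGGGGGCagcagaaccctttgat
Gm14005, chr2:128396111-128396154, minus strand: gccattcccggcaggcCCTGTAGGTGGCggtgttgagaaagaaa
Lrig2, chr3:104442198-104442241, minus strand: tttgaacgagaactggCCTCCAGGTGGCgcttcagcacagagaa
Prkce, chr17:86445084-86445127, minus strand: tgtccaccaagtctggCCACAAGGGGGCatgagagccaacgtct
Pebp4, chr14:69861560-69861603, plus strand: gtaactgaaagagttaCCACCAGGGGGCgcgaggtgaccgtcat

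The next set shows 200 bp at the centre of members without the CTCF string: 3 of the strongest, the strongest one inside the chromaffin gene Th, and the best ranked of them with the NR5A string under a footprint in both libraries. All are on the plus strand of mm10. Capitals mark matches to the strings searched: in Gphn the E-box CAGGTG and the MEIS/PREP string TGACAG, in Itpkb the cAMP response element TGACGTCA, in Jarid2 the NRF1 string GCGCATGCG, in Th TGACAG and the E-box CAGATG, and in Limch1 the NR5A string CAAGGTCA alone. Limch1 also matches CTTGGCA, the NFI half-site, and TGACAG, whose bases outside the NR5A match are left in lower case.
Gphn, chr12:78350871-78351070: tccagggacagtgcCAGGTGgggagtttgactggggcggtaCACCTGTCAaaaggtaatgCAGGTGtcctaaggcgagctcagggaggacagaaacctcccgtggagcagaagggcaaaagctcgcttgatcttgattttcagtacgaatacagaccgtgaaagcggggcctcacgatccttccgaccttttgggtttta
Jarid2, chr13:44869901-44870100: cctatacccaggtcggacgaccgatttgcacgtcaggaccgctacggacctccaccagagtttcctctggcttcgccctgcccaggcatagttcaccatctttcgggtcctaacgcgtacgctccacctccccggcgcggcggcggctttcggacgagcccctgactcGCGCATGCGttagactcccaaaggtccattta
Itpkb, chr1:180387541-180387740: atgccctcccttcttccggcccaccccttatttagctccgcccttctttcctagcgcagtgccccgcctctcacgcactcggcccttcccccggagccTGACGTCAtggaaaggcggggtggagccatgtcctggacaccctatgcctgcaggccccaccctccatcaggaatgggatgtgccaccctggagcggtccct
Th, chr7:142919321-142919520: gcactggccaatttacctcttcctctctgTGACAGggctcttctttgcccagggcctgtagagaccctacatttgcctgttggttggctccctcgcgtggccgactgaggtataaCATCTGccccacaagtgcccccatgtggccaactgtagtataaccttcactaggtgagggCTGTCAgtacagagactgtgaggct
Limch1, chr5:66877189-66877388: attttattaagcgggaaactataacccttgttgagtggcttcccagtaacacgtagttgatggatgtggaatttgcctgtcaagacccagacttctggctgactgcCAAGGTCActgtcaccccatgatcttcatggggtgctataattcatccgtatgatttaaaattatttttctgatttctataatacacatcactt

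Deep intronic members were narrower and of lower signal than peaks at promoters, much like distal intergenic peaks. Signal is the authors' own value per peak, on a scale whose making is not explained in the file descriptions. Its median over members was 0.7846 in replicate 1, with a range of 0.2217 to 16.27, and 1.794 in replicate 2, with a range of 0.1671 to 27.26. Over all deep intronic replicate 2 peaks, found in replicate 1 or not, the median was 0.7653. Shared peaks within 1 kb of a TSS had medians of 1.399 in replicate 1 and 2.639 in replicate 2, and intergenic shared peaks over 10 kb from a TSS had 0.8017 and 1.812. The medians of deep intronic members thus lay close to those of distal intergenic peaks and below those at promoters in both libraries. Median width was 176 bp, against 180 bp in distal intergenic peaks and 220 bp within 1 kb of a TSS. Around each peak, the stretch where the false discovery rate of the local cut rate stayed below 0.05 was measured. Its median length for members was 181 bp in replicate 1 and 260 bp in replicate 2. Distal intergenic peaks had 198 bp and 264 bp, and peaks within 1 kb of a TSS had 581 bp and 630 bp. Such a stretch of 1 kb or more held 0.4009% of members and 24.13% of the peaks near a TSS in replicate 2.

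The libraries ordered the members alike but on different scales. Across 3230 members overlapped by exactly 1 replicate 1 peak, the Spearman coefficient of signal was 0.8112; members share library and scale, and the value is a description. Signal was higher in replicate 2 for 97.87% of members, with a median ratio of replicate 2 to replicate 1 of 2.216. The other 69 members were lower in replicate 2, and 15.94% of them had at least 50% of their 200 bp window repeat-masked, against 2.647% of the rest. Of all members, 49.95% were in the stricter peak list of replicate 1, 80.33% in that of replicate 2 and 47.92% in both.

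**Figure D1:**
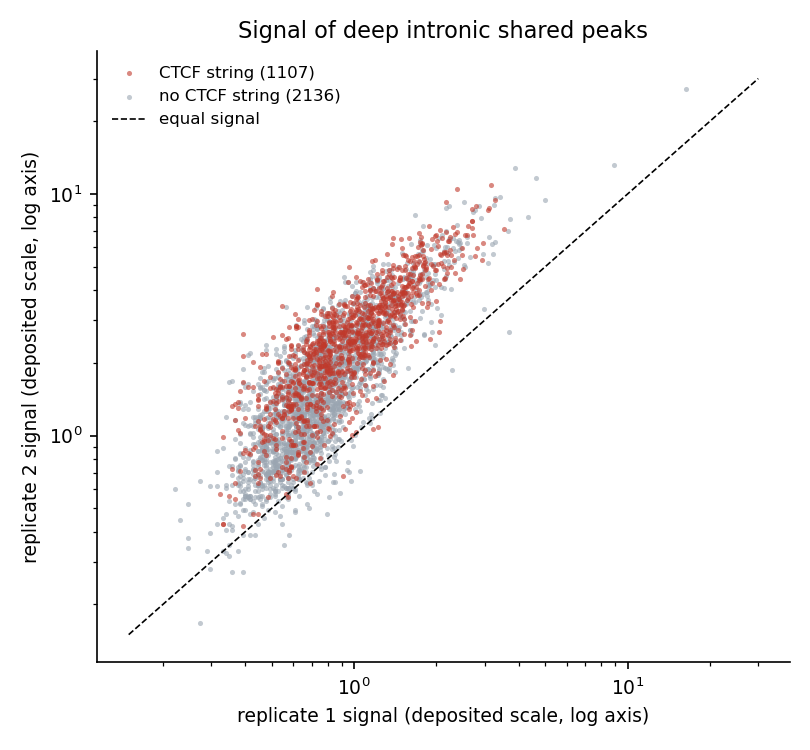
Signal of the 3243 deep intronic members in replicate 1 (horizontal) and replicate 2 (vertical), on log axes in the authors' scale; each point is a member, in red where its 200 bp window holds the CTCF string (1107) and in grey where it does not (2136). Most points lie above the dashed line of equal signal, and the red points lie towards the upper right.

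Replicate 2 held many deep intronic peaks that replicate 1 lacked. Of its 10798 deep intronic peaks, 3243 or 30.03% were overlapped by replicate 1, against 45.2% of all 84379 replicate 2 peaks; since that overlap is part of the rule, nothing is read from it. By 5 groups of replicate 2 signal, the share found was 1.167, 10.82, 28.62, 70.28 and 98.05% for deep intronic peaks, against 2.035, 16.24, 37.33, 72.18 and 98.18% for all peaks. These shares describe the same overlap, and all peaks include the deep intronic ones, so nothing is read from them either. Of 4093 deep intronic peaks of replicate 1, replicate 2 held 79.01%. The number of reads behind each library was not known here, so the precision of a single peak could not be computed.

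The strongest deep intronic regions lay in genes of varied function. The best mean rank was that of a peak in intron 3 of Jarid2, a component of the Polycomb repressive complex PRC2, which reached 16.27 in replicate 1 and 27.26 in replicate 2. A second peak of the same intron, at chr13:44869901-44870100, had 4.972 and 9.473. Its 200 bp window held 21 CpG, and that of the stronger peak 14. The second rank went to Gphn, which encodes gephyrin, a scaffold of inhibitory synapses, with 8.929 and 13.19. Xkr6, of a family of scramblase-related membrane proteins, had 3.872 and 12.75. A peak in intron 2 of Itpkb, an inositol trisphosphate kinase, had 3.42 and 9.685 and carried a cAMP response element under footprints of both libraries. Further members of the top 10 lay in Col23a1, a transmembrane collagen, in St3gal3, a sialyltransferase, in Gm14005 and in Cngb1, a subunit of a cyclic nucleotide-gated channel. Their signals spanned 3.155 to 3.275 in the replicate 1 library and 9.034 to 10.88 in that of replicate 2. The leading Jarid2 peak stood apart in both libraries, while the members named last followed each other closely.

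Members were nearer to a TSS than deep intronic sequence as a whole, and weaker the further they lay from one. For comparison, 50000 random deep intronic positions were drawn outside the peaks of either library. The median distance was 22744 bp for members and 28170.5 bp for random positions. Of the members, 43.17% lay 10 to 20 kb from a TSS, against 34.32% of random positions, and 4.101% lay over 100 kb away, against 10.14%. Median signal at 10 to 20 kb was 0.8528 in replicate 1 and 1.97 in replicate 2, and beyond 100 kb it was 0.6567 and 1.451. The farthest member, in Astn2, a neuronal gene of glial-guided migration, lay 370798 bp from a TSS with signals of 0.3326 and 0.4574. First introns held 21.52% of the members inside protein-coding introns (exact 95% interval 20.03 to 23.07%), against 22.37% of random positions, so no preference for first introns was seen at this distance. The median distance to the nearest other member was 86.59 kb, and 5.273% of members lay within 1 kb of another. The introns that held members had a median length of 32.78 kb, against 53.64 kb for random positions.

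Members were rich in G and C and mostly free of repeats. Their 200 bp windows had a median of 52.5% GC and a mean of 3.808 CpG, against 41.5% and 1.551 at random positions. Peaks within 1 kb of a TSS had 66% and 16.81, so members resembled distal intergenic peaks (52.5% and 4.852) more than promoters. At least 10 CpG were present in 147 members, or 4.533%, against 0.342% of random windows. Windows with at least 50% repeat-masked bases made up 2.929% of members and 23.01% of random positions; reads from repeats are hard to place, and the part of that in this difference was not tested.

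Most protein-coding genes with deep intronic sequence hosted no member. Of 8392 such genes, 1755 or 20.9% held at least 1. Of these, 1163 held 1 member, 347 held 2, 245 held 3 or more and 6 held 10 or more. In all, 2876 members lay in protein-coding genes and 367 in genes of other types alone. The share of hosts rose with length, from 4.185% of genes with up to 10 kb of deep intronic sequence to 68.18% of those with over 300 kb, while members per 100 kb were 0.9909 in the shortest of these classes and 0.3624 in the longest. Long genes thus held more members but at a lower density.

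The genes with the highest density among those with 3 or more members were mostly short hosts with exactly 3. D630003M21Rik, an uncharacterised gene, held 3 in 14.88 kb, or 20.16 per 100 kb, and Gm44511 held 3 in 15.39 kb, or 19.49. Wdtc1, which encodes a WD repeat protein linked to fat storage, held 3 in 16.3 kb, or 18.41. The Wdtc1 members had 1.33, 1.416 and 2.379 in replicate 1 and 2.401, 2.437 and 7.406 in replicate 2, so that 1 of them stood above the other 2 in both libraries. Bahcc1, a chromatin protein with a BAH domain, had 17.04 per 100 kb and Nos2, the inducible nitric oxide synthase, had 13.91. Rfx2, a transcription factor of ciliated cells, had 13, Gpa33 had 12.68, Abca3, a lipid transporter, had 12.35, Nxpe3 had 12.22 and Fam219a had 12.13. Each of these values rests on 3 peaks. Rfx2 had 60.67 per 100 kb without replicate 1 and 4.334 with the stricter peak lists, under which Bahcc1 had 11.36 and Nos2 4.638.

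Tns1 reached a similar density with 7 members. The gene, which encodes tensin, a protein of focal adhesions, had 13.74 per 100 kb. Its signals in genome order were 0.5458, 0.29, 0.2303, 0.2217, 1.023, 0.6908 and 1.714 in replicate 1, and 0.431, 0.3343, 0.4486, 0.5981, 1.346, 0.7917 and 5.638 in replicate 2. The first 4 were weak in both libraries and lay next to each other, from 11646 to 13536 bp from a TSS. None of the 7 members of Tns1 held the CTCF string. Tns1 had 21.59 per 100 kb without replicate 2, and 7.851 where peaks had to overlap by at least 50% or to touch no exon.

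The genes with the most members were long. Gm20388 held 45, but it is annotated over 4434.9 kb and overlaps other genes, so that the 12 members of Gse1 are counted in it as well. Gse1, which encodes a coiled-coil protein found in corepressor complexes, held them in 235.9 kb, or 5.087 per 100 kb. Gse1 had 10.17 without replicate 1, and 2.967 with the stricter lists or an overlap of at least 50%. Fgfr2, a fibroblast growth factor receptor, held 13, though its annotation of 2960.9 kb includes an intron of 2908817 bp that spans other genes. Camta1, a calmodulin-binding transcription activator, held 12, and Asic2, a proton-gated channel, and Dlg2, a synaptic scaffold, held 10 each. Pde4d, a cAMP phosphodiesterase, and Ctif, a translation factor, held 9, and Klhl29, Zfhx3 and Nav2 held 8. Among these long genes Gse1 and Ctif, with 4.261 per 100 kb, were the densest.

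**Figure D2:**
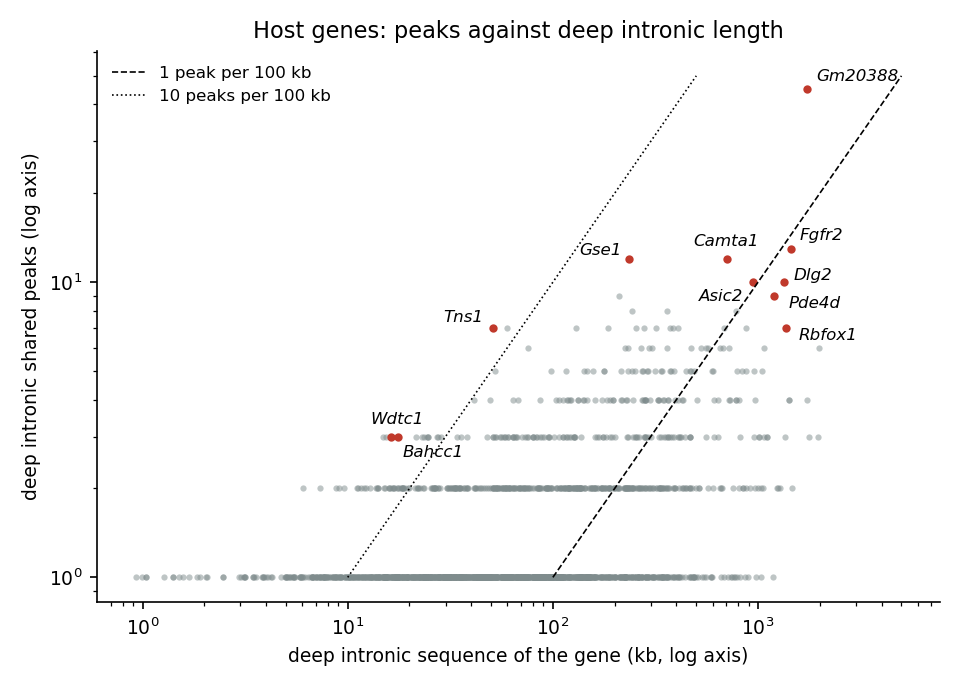
Number of deep intronic members of each of the 1755 protein-coding hosts (vertical, log axis) against the length of its deep intronic sequence in kb (horizontal, log axis), with lines at 1 and 10 members per 100 kb. Genes of the text are in red; Tns1, Wdtc1 and Bahcc1 lie left of the line of 10 per 100 kb, and the long genes Dlg2, Pde4d, Fgfr2 and Rbfox1 right of the line of 1.

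Gene lists were read against 20.9% of all eligible genes and 0.5937 members per 100 kb. Many lists have longer deep introns than the median of 18.16 kb over all eligible genes, so density is given beside the share of hosts. With all replicate 2 peaks, found in replicate 1 or not, 38.24% of all eligible genes were hosts. Of the list of steroid synthesis, 3 genes had deep intronic sequence, with a median of 7.633 kb, and 0 held a member. Little can be read from so short a sequence. Of 8 genes of cholesterol supply, 2 did, at 0.8507 per 100 kb: Srebf2, the master regulator of sterol synthesis, with 1.68 in replicate 1 and 4.389 in replicate 2, and Abcg1, a cholesterol exporter, with 1.117 and 1.399. Of 21 genes of cortex identity and zonation, 8 held 10 members, at 0.8225 per 100 kb. With the stricter peak lists 9.524% of these 21 genes were hosts, against 12.57% of all eligible genes. Znrf3, a ubiquitin ligase that restrains Wnt signalling in the cortex, held 2, with 0.8273 and 0.9722 in replicate 1 and 3.114 and 0.9588 in replicate 2. Gata4 and Wnt4 held 1 each. The Gata4 peak had 1.151 and 2.41, and the Wnt4 peak 1.177 and 1.61. Nr5a1 and Mc2r, the receptor for adrenocorticotropic hormone, held none, but they have only 6.775 and 10.89 kb of deep intronic sequence, so little can be read from this.

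Genes of cAMP signalling, through which adrenocorticotropic hormone acts on the cortex, hosted 33 members in 12 of 22 eligible genes, at 1.058 per 100 kb. By count, phosphodiesterases led the list, with 9 members in Pde4d, 5 in Pde11a and 4 in Pde10a, beside 4 in Rapgef4, an exchange factor activated by cAMP. By density Rapgef4 led with 3.253 per 100 kb, before Prkar1b with 2.925 from 2 members. Pde11a had 1.817, Pde10a 1.453 and the long gene Pde4d 0.7506. The best ranked Pde4d member had 1.39 and 6.562 and held the CTCF string under footprints of both libraries. The 5 members of Pde11a were weak, with 0.4946 to 0.8273 in replicate 1 and 0.6245 to 1.821 in replicate 2. Adcy5, an adenylate cyclase, held 1 member, with 1.134 and 3.096, while replicate 2 had 20 deep intronic peaks there and replicate 1 had 1.

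Chromaffin genes held 18 members in 8 of 17, at 0.8953 per 100 kb. Th, tyrosine hydroxylase, the first enzyme of catecholamine synthesis, held 2 in 11.11 kb, one with 1.97 and 5.137 and one with 0.9296 and 1.363. The Th gene of this annotation starts far upstream of most of its exons, and both peaks lie in its intron 1. Ptprn2, a protein of dense-core vesicles, held 6, Cacna1a, a subunit of calcium channels, held 4, and Scg5, a secretory granule chaperone, held 2. The endothelial list had members in 2 of 14 genes, Pecam1 and Flt1, at 0.2824 per 100 kb. The capsule and fibroblast list held 8 in 4 of 11, at 1.249, and the leukocyte list 0 in 9. Flt1, a receptor for vascular endothelial growth factor, had 1.143 and 3.993 at a member with the CTCF string under footprints of both libraries. Genes of other tissues hosted members too: 11 of 14 neuronal genes held 46, at 0.3285 per 100 kb, and 4 of 8 kidney genes held 5, at 1.416. In the liver list 1 of 7 genes held 1 member, at 0.7793 per 100 kb, in the muscle list 1 of 5, at 0.5526, and in the erythroid list 1 of 3, at 0.71. The density of the kidney list was thus higher than those of the cortex and chromaffin lists, but it rests on 5 members. Its share of hosts, 50%, was close to the 47.06% of the chromaffin list, and the cortex list had 38.1%. The neuronal genes have a median of 1073.9 kb of deep intronic sequence, and their density was below that of all eligible genes although more of them were hosts. Nrg1, a ligand of Schwann cell receptors, held 5 members as the sole host of the 3 eligible genes of the Schwann and neural crest list, at 0.5176 per 100 kb.

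Transcriptional and growth regulators were also hosts. Of the nuclear factor I genes, Nfib held 5 members, Nfia 4, Nfix 1 and Nfic 0, at 1.628 per 100 kb together. Of 20 nuclear receptors and co-regulators 7 or 35% held 22 members, at 0.8375 per 100 kb, among them 6 in Rora, 4 in Esrrg and 2 in Ncoa3. Without replicate 1 the share of hosts in this list was 75%. Of 22 genes of growth factor and transforming growth factor beta signalling 11 held 36, at 1.224 per 100 kb. Of these members 13 lay in Fgfr2, whose annotation spans other genes. The list also counts the tensin genes Tns1, with 7, and Tns3, with 5, so its density is not that of receptors and their signalling proteins alone. Igf1r, the receptor for insulin-like growth factor 1, held 4, the strongest with 2.857 and 8.937, and replicate 2 had 30 deep intronic peaks there. In the nuclear receptor list 2 of 22 members held the CTCF string, and in the neuronal list 24 of 46, or 52.17%, against 34.14% of all members. These lists were chosen with earlier results of these data known, and the counts carry no test.

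The CTCF string was the most frequent of the 38 strings searched, none of which the rule used. It was present in 1107 of 3243 members, or 34.14% (exact 95% interval 32.5 to 35.8%), against 1.966% (1.846 to 2.092%) of random windows, a ratio of 17.36. Intronic shared peaks 1 to 10 kb from a TSS had it in 34.91%, distal intergenic peaks in 36.09% and peaks within 1 kb of a TSS in 13.9%, so this share was not particular to deep introns. Windows of 45 to 55% GC alone gave 36.33% of members and 3.217% of random windows. The searches covered both strands, and a match describes letters, not a binding event. The intervals cover counting error alone, and windows are not replicates.

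Bases that the search left free differed from those of random matches, towards those known from CTCF sites. The string fixes 7 of 12 bases. Counted from its first C, base 3 was A in 79.22% of members with a match and in 48.9% of the 908 random matches with flanks in the window. Base 4 was C or G in 49.32% and 43.63% of members, against 14.98% and 42.62% of random matches. Base 9 was G in 56.1% and T in 36.04% of members, and G in 37.89% and T in 28.74% of random matches. After the string, base 13 was A or G in 52.66% and 38.48% of members, against 44.6% and 8.59%. Base 8 was A or G in 41.19% and 52.48% of members, against 48.13% and 21.92% of random matches.

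Matches lay at the peak centre and under long footprints. The median distance of the match from the peak centre was 11 bp, against 47 bp from the window centre at random positions, and 83.74% lay within 25 bp, against 26.14%. A footprint covered at least 4 bases of the match in 858 of 1107 members in replicate 1, or 77.51%, and in 986, or 89.07%, in replicate 2. Both libraries had one over it in 75.43%. These footprints had a median width of 21 bp in replicate 1 and 27 bp in replicate 2. All footprints of members without the string had 9 bp and 10 bp. The latter did not have to cover 4 bases of a match, a condition that favours long footprints, so the widths are not like for like. At 20 bp upstream of the centre of the string 20.51% of members in replicate 1 and 32.61% in replicate 2 had a footprint, against 15.54% and 26.02% at 15 bp upstream. The shares were 1.716% and 1.536% at 35 bp on either side, and 11.2% and 17.52% at 60 bp downstream.

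**Figure D3:**
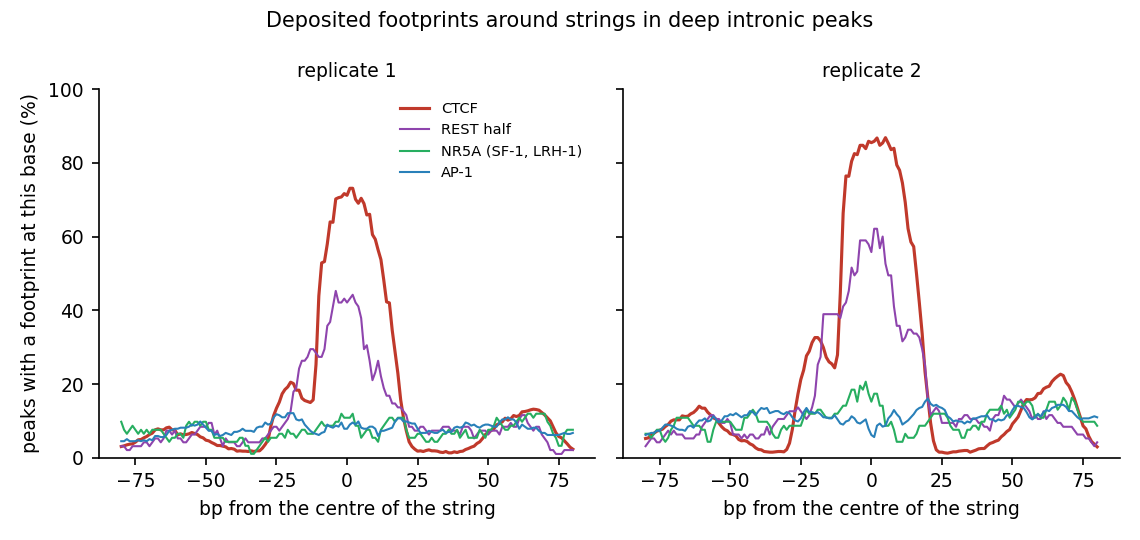
Share of members with a deposited footprint at each base (vertical, %) against the distance from the centre of the string nearest to the peak centre (horizontal, bp), for replicate 1 (left) and replicate 2 (right); lines stand for members with the CTCF (1107), REST half-site (95), NR5A (92) and AP-1 (355) strings. CTCF matches are turned to the strand on which the string reads; at their centre 71.18% of members in replicate 1 and 85.46% in replicate 2 had a footprint, while the AP-1 line lies between 4.507 and 12.11% in replicate 1 and between 5.634 and 16.06% in replicate 2, with its low point of replicate 2 at the string.

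Of the other strings, some were often under footprints and others seldom. The REST half-site TCAGCACC, bound by a repressor of neuronal genes, was in 2.929% of members and 0.834% of random windows, and 37.89% of the 95 members with it had a footprint over it in both libraries. The YY1 string AAGATGGCG was in 8 members, 7 with footprints of both, and the RFX string GTTGCCATG in 17, also 7 with both. The cAMP response element TGACGTCA was in 15 members, 4 with both. By contrast AP-1 (TGANTCA), the site of FOS and JUN dimers, was in 10.95% of members and 6.1% of random windows, but 7 of 355 had a footprint in both libraries, and in replicate 1 the share of footprints with it, 0.9804%, was close to the 0.854% of windows shifted by 40 bp in the same peaks. The NR5A string CAAGGTCA was in 2.837% of members (2.293 to 3.468%) and 1.104% of random windows, with footprints of both in 5 of 92. The AP-1 string TGANTCA is contained in the longer NRF2 string TGANTCAGC, found in 2.498% and 0.648%. The E-box CAGGTG, which can form part of a CTCF site, was in 17.33% and 11.37%; outside CTCF matches these shares were 13.75% and 11.34%.

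Further strings were more frequent at members. The E-box CAGCTG was in 17.95% of members and 7.334% of random windows, but in 16.2% and 11.94% of windows of 45 to 55% GC. Without this limit, the NFI half-site CTTGGCA was in 8.572% and 3.08%, and the glucocorticoid response element GNACANNNTGTNC in 0.8017% and 0.284%. The full NFI palindrome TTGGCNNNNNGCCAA, which can overlap the half-site, was in 8 members and 4 of 50000 random windows. The GC box GGGCGGG was in 4.656% and 0.742%, but in 1.986% and 1.303% of windows of 45 to 55% GC. Without matching for GC, 14 of the 38 strings had a ratio of 2 or more, 4 lay between 1.5 and 2, 13 were closer to 1 and 7 were below 0.667. Among the last were the homeobox core TAATTA, in 2.374% of members and 7.602% of random windows, and the GATA string TGATAAG, in 1.511% and 2.7%. For GATA the order turned within 45 to 55% GC, with 1.934% of members and 1.416% of random windows. Other ratios fell within this range, from 3.854 to 1.424 for the cAMP response element, 2.184 to 1.303 for RFX and 2.57 to 1.827 for NR5A. Those of the NFI half-site (2.783 to 2.079), the REST half-site (3.512 to 2.859) and the glucocorticoid response element (2.823 to 2.699) stayed above 2, and that of AP-1 went from 1.795 to 1.93.

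**Figure D4:**
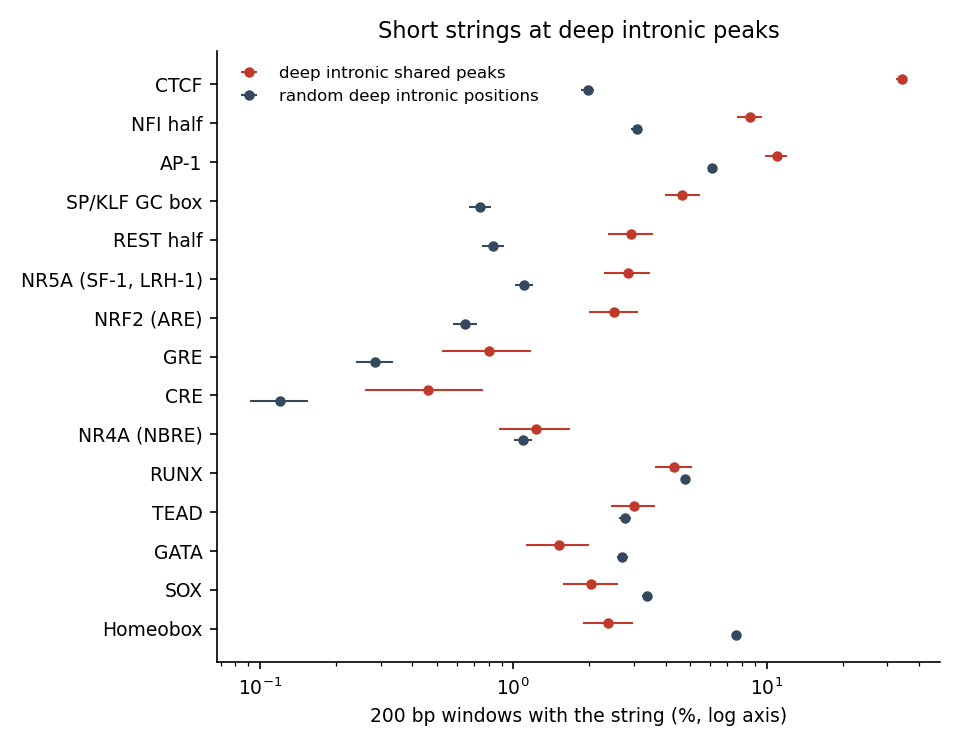
Share of 200 bp windows with each string (horizontal, %, log axis) in the 3243 deep intronic members (red) and in 50000 random deep intronic positions (dark blue); bars are exact 95% intervals, which cover counting error alone. Of the strings plotted, CTCF shows the widest gap, with 34.14% against 1.966%, and the homeobox core the widest in reverse, with 2.374% against 7.602%.

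A search without preset strings led to letters found in CTCF sites. The 8-mers with the highest ratio over random windows on odd-numbered chromosomes were valued on even-numbered ones. GAGGGCGC and its reverse complement were in 4.221% of 1611 members and 0.07174% of 25090 random windows there, GCGCCCCC in 4.035% and 0.06776%, AGGGGGCG in 5.276% and 0.1156%, and AGGTGGCG in 4.655% and 0.1156%. AGGGGGCG and the reverse complement of GCGCCCCC can be read in the Pebp4 site shown above, and several of the 8-mers overlap each other. Among 6-mers GGCGCC led, with 7.263% and 0.3627%.

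The strings divided by strength of the peak. The CTCF string was in 50.42% of the strongest 1081 members by mean rank, 33.3% of the middle 1081 and 18.69% of the weakest 1081. NR5A ran the other way, with 1.295, 3.33 and 3.885%, and so did AP-1, with 7.031, 10.92 and 14.89%. The NFI half-site had 7.678, 8.141 and 9.898%. The E-box CAGCTG varied little, with 16.47, 18.69 and 18.69%. Members with the CTCF string had median signals of 0.9211 in replicate 1 and 2.419 in replicate 2, and those without it 0.7334 and 1.495, whereas members with the NR5A string had 0.7164 and 1.28. Of 92 members with NR5A, 19 also held CTCF, or 20.65%, and of 355 with AP-1 54 did, or 15.21%, against 34.14% of all members. The NFI half-site was in 15 of the 92, or 16.3%, against 8.572% of all members, and AP-1 in 12, or 13.04%, against 10.95%.

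Deep intronic peaks found in replicate 2 alone had lower shares of the CTCF, NR5A and AP-1 strings than the weakest 1081 members. There were 7555, with a median signal of 0.5981, and 12.51% of them held the CTCF string (11.77 to 13.28%), 3.243% the NR5A string and 10.52% the AP-1 string. At like signal, the shares with the CTCF string lay closer. Between 0.8 and 1.3 of replicate 2 signal, CTCF was in 17.84% of 684 members and 20.52% of 1706 peaks of replicate 2 alone. Between 1.3 and 2.0 it was in 30.61% of 797 and 35.95% of 459, and between 2.0 and 2.6 in 43.27% of 483 and 44.29% of 70. From 0.8 to 1.3 NR5A was in 4.678% of members and 3.517% of the others, and from 1.3 to 2.0 in 2.76% and 3.486%. For AP-1 these shares were 15.94% and 14.01%, then 11.17% and 10.24%. The exact intervals overlapped in each of these pairs. They did not for the E-box CAGCTG from 0.8 to 1.3, in 22.66% of members (19.57 to 25.99%) and 15.77% of the others (14.07 to 17.59%). From 1.3 to 2.0 its shares were 16.81% and 18.95%, and from 2.0 to 2.6 they were 18.01% and 10%, with overlapping intervals in both ranges.

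**Figure D5:**
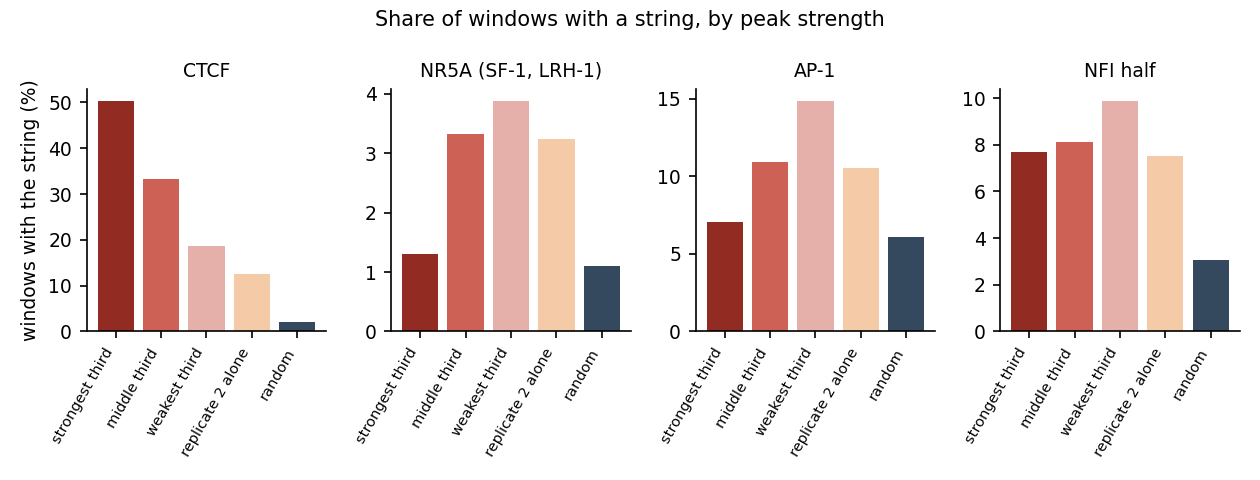
Share of 200 bp windows with the CTCF, NR5A, AP-1 and NFI half-site strings (vertical, %, each panel with its own axis from 0) in the strongest, middle and weakest 1081 members, in 7555 deep intronic peaks of replicate 2 alone and at 50000 random positions. The CTCF bars fall from 50.42% to 18.69% over the members, while the NR5A bars rise from 1.295% to 3.885% and the AP-1 bars from 7.031% to 14.89%.

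Most members held a footprint in both libraries. The share was 85.26% in replicate 1, 93.4% in replicate 2 and 82.08% in both, and 111 members had none in either. In 70.55% a footprint of one library overlapped one of the other. Replicate 1 had 5155 footprints in members and replicate 2 had 6279, with up to 7 and 8 in a single member. The share with footprints in both was 98.89% in the strongest 1081 members, 89.92% in the middle and 57.45% in the weakest. It was 82.89% in intronic peaks 1 to 10 kb from a TSS, 81.73% in distal intergenic peaks and 74.84% within 1 kb of a TSS. Deep intronic members thus resembled other distal peaks in this respect, and their footprints went with signal.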

How the data were processed

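Peak signal is the deposited value of each narrowPeak entry, per the file headers' description of the files as peaks of 1 library on mm10; no source used here gives the scale, the caller or its version. The authors also deposited footprints, whose score is 0.01 throughout so that positions alone were used, and the false discovery rate of the local cut rate, a p-value adjusted by the authors and listed below 0.05. Each library has 2 peak lists, and the longer was used. No source used here gives the read depth.

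Peaks overlapping by at least 1 bp on chromosomes 1 to 19 were shared, and the replicate 2 peak was kept. Positions were compared with GENCODE release M21, and 200 bp windows were read from the GRCm38 (mm10) genome. Windows of members and of 50000 random deep intronic positions outside peaks were searched for 38 strings on both strands. Repeat masking is that of the genome file. No sequence of chromosome 18 is printed. Footprints and windows shifted by 40 bp were widened to at least 20 bp for the share of footprints with a string. Shares carry exact (Clopper-Pearson) 95% intervals, which cover counting error only.

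Hosts named are the 12 densest with at least 3 members, the 10 with most members, and genes of 17 lists (299 genes) with 2 or more members, up to 4 a list; peaks named are the 10 best by mean rank and the best of each list of adrenal cell types. Other genes were named after their values were seen. Some items that these rules name are not reported here. The members and lists were chosen with earlier results of these data known. Python 3.11.15, numpy 2.4.6, scipy 1.17.1 and matplotlib 3.10.9 were used, and the scripts were tested on simulated data. Alternatives changed the peak list, library, overlap, distance, annotation, background, window and masking.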

Additional observations from a re-analysis of the deposited data

How the results depend on the processing

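The number and share of members depended on the peak lists and on the distance. With the stricter lists there were 1553 members, or 6.294% of shared peaks, 12.57% of genes were hosts, 96.78% of members had a footprint in both libraries and the CTCF ratio was 22.6. Leaving out a library gave 4093 to 10798 members, 9.183 to 12.8% of peaks, 23.75 to 38.24% of genes, 24.69 to 64.18% with footprints in both and a CTCF ratio of 9.666 to 14.45. An overlap of at least 50% gave 9.164%, 19.1% of genes, 87.77% and 18.76. A limit of 5 kb gave 12.25%, 19.82% of genes and 19.06, and one of 20 kb gave 1843 members, 4.827%, 22.81% of genes, 79.92% and 18.37. Start sites of protein-coding genes alone gave 11.58%, 22.72% of genes and 18.7. The CTCF ratio was 11.71 against windows 2 kb to either side, 33.69 in windows of 100 bp, 16.45 with under 20% repeat-masked bases and 11.29 at 45 to 55% GC, an alternative chosen after seeing the data. The ratio of footprint shares to shifted windows turned round for AP-1 in replicate 1 (1.148 as reported), to 0.9185 with the 5 kb limit and 0.92 with footprints widened to 14 bp, and in replicate 2 (0.7675), where leaving out a library gave 0.7249 to 1.018. For NR5A in replicate 1 (0.7892 as reported) it turned to 1.582 with the stricter lists and 1.587 at 14 bp. The causes were not tested. Of 318 alternative values, 207 stayed within a set limit, 106 moved beyond it and 5 turned round. The limit was the counting interval for shares, and 1.5 times for numbers, medians and densities. For all ratios it was the relative interval of the string's share in member windows. That interval leaves out the counting error of random, footprint and shifted windows.

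The densest host was D630003M21Rik as reported, Wdtc1 with the stricter lists, Anp32a without replicate 1 and Coro2a without replicate 2. No paired analysis was possible because there is 1 group. Read depth is unknown, so weak peaks absent from a library cannot be told apart from closed sites.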

Other observations

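Some genes held groups of weak deep intronic peaks in replicate 2 alone. Hadh, a mitochondrial enzyme of fatty acid oxidation, had 37 such peaks in 23.85 kb of deep intronic sequence, with signals of 0.1056 to 0.5278, and 1 member. Sox13, a transcription factor, had 20 in 11.11 kb and no member, with signals of 0.08796 to 0.7037. Ramp3, a partner of receptors of the calcitonin family, had 11 in 5.457 kb and no member, with 0.1407 to 0.6245. In all, 103 of the 8392 protein-coding genes with deep intronic sequence had 10 or more peaks of replicate 2 alone, and 20 of these held no member. This count sets no limit on spacing, so it includes long genes whose peaks may be scattered. Of the 7555 deep intronic peaks of replicate 2 alone, 23.68% lay within 1 kb of another of them, against 5.273% of members within 1 kb of another member. Both counts depend on the number of peaks in each set, and the source of the difference was not tested.

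CTCF matches of members read on the strand of the host gene in 437 of 991 cases with exactly 1 protein-coding host, or 44.1% (exact 95% interval 40.98 to 47.25%), against 435 of 856 random matches, or 50.82% (47.41 to 54.22%). Matches of 1 gene are not independent, and the difference was not tested.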
